A study of Homo sapiens with 4 samples.

Results

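The 9 genes described here mark the distal lung epithelium and the cells that make surfactant: SFTPB, SFTPC and SFTPD, which encode surfactant proteins, NAPSA, LAMP3 and SLC34A2, which act in processing, storage and transport in alveolar type II cells, and NKX2-1, FOXA1 and FOXA2, the transcription factors of that lineage. They were chosen by name, and each was read from the probe set that carries its symbol alone in the platform annotation. All 9 were measured, each by 1 probe set, among 17687 genes on the array. The cells were A549, an established line from a human lung adenocarcinoma that is widely used as a model of alveolar epithelium.

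Total RNA was compared between 2 arrays of A549 cells with a short hairpin against LDOC1 and the histone mutant H2BK120R (titled A549-shLDOC1-H2BK120R) and 2 arrays of A549 cells with the same hairpin and the vector (titled A549-shLDOC1-V). H2BK120R replaces the lysine of histone H2B that receives monoubiquitin, and the design text gives it as lowering H2Bub1, the ubiquitylated form, which the hairpin had raised. Both groups therefore carry the depletion of LDOC1, and both were kept in puromycin in high glucose medium and harvested above 90% confluency. The sources used here do not give whether the lines were clones or pools, or the promoter that drives the mutant histone. Cells with unmutated added H2B, cells with intact LDOC1 and the parental line were not analysed here, so the values speak only to H2BK120R against vector among depleted cells.

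Surfactant is a film of lipid and protein that keeps the air spaces open. Alveolar type II cells make its proteins and lipids, pack them into lamellar bodies and secrete them, while the surfactant proteins SP-A and SP-D also bind microbes. NKX2-1, a homeodomain factor, together with the forkhead factors FOXA1 and FOXA2, is known to switch on the surfactant genes, and a tumour cell of alveolar origin may keep or lose NKX2-1 while FOXA genes stay on.

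The sequences before the start sites of 4 of these genes are shown, because the results set the levels of a surfactant gene and of the factors known to act on it side by side: SFTPB and SFTPD as surfactant genes, NKX2-1 and FOXA1 as factors. Each run is 250 bases ending just before a RefSeq start in GRCh38.p14, written 5′ to 3′ on the gene's strand, and all 4 genes lie on the minus strand. The windows are chr2:85668200-85668449 for SFTPB, chr10:79949106-79949355 for SFTPD, chr14:36520233-36520482 for NKX2-1 and chr14:37595250-37595499 for FOXA1. Capitals mark matches, on either strand, to a forkhead or an NKX2-1 core. The forkhead core was searched as TGTTTAC, its canonical form. Its accepted variant with a final T is TGTTTAT. The form with a G in place of the A is TGTTTGC, and that form with a final T in turn is TGTTTGT. The NKX2-1 core was CTCAAG, the last letters of the known consensus site.
SFTPB: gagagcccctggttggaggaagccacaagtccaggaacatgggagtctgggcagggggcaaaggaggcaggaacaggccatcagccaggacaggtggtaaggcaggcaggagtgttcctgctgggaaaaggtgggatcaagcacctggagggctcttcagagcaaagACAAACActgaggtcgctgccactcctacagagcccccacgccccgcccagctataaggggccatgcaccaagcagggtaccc
SFTPD: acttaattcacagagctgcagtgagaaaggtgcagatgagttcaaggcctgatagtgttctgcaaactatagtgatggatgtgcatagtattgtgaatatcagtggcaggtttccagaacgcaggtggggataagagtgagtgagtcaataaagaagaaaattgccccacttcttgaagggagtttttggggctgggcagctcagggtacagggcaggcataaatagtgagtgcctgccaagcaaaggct
NKX2-1: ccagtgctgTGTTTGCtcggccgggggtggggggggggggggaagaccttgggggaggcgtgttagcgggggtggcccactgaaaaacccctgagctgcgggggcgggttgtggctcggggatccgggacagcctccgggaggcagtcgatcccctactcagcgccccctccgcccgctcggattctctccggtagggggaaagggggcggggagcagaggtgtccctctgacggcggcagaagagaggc
FOXA1: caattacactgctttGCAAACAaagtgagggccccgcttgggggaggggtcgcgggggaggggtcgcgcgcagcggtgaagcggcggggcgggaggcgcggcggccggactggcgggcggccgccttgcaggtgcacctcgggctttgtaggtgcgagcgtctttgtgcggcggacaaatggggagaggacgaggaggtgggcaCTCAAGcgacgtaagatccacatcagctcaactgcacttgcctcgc

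In SFTPB the forkhead match, read as ACAAACA, covered 83 to 77 bases before the start. A second SFTPB start window in the table held none. In NKX2-1 the forkhead match lay 241 to 235 bases upstream, and a second NKX2-1 start window, not printed, held TGTTTAC 130 to 124 bases upstream. FOXA1 held a forkhead match 235 to 229 bases and an NKX2-1 core match 46 to 41 bases upstream, and the SFTPD window held neither. No 2 of these matches overlapped. Windows on chromosome 8, where SFTPC lies, were left out of these member counts. Of the rest, the RefSeq table gave 10 start windows for 6 of the 9 genes. Among those 10, 5 held a forkhead match and 2 an NKX2-1 core match. Over all 35116 windows of this length, with no chromosome left out, 13.3% held a forkhead match and 10.4% an NKX2-1 core match. A match describes letters only: binding was not measured, and sites that differ from these letters were not searched.

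The values are log2 levels as deposited, 1 per probe set and array. Brightness depends on the probes as well as on the RNA, and no detection calls were used, so the 9 genes are not ranked against each other. As a background of mostly dim probe sets, 348 olfactory receptor genes on the same arrays were used. Their mean levels had a median of 3.44 and a 5th to 95th percentile of 2.38 to 5.17. The brightest of them was at 9.12, so not all of the set is dim. The median over all probe sets was 6.41, and 13209 of the 21448 probe sets lay above that 95th percentile.

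The surfactant protein genes split by this background: SFTPB and SFTPC lay inside it and SFTPD above it. SFTPB (chromosome 2), whose small hydrophobic protein organises the surfactant film, was at 4.31 and 4.10 in the H2BK120R arrays, against 3.89 and 4.29 in the vector arrays. SFTPC (chromosome 8), the other hydrophobic surfactant protein and the most specific type II marker, was at 3.91 and 4.16 with H2BK120R, against 3.86 and 4.16 with the vector. The groups overlapped for both genes, and 72 and 86 of the 348 olfactory receptor genes were at least as bright on average as SFTPB and SFTPC.

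SFTPD (chromosome 10) encodes SP-D, a collectin, a soluble lectin with a collagen tail that binds sugars on microbes. It was at 6.0 and 6.77 in the H2BK120R arrays, against 6.94 and 6.19 in the vector arrays. Each group held a brighter and a dimmer array about as far apart as the other group's, and the groups overlapped. On average 1 of the 348 olfactory receptor genes was at least as bright. The difference was -0.18 on the log2 scale with a limma standard error of 0.35 and a 95% interval of -0.95 to 0.59.

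The genes for processing, storage and phosphate transport lay inside the background in the group means. NAPSA (chromosome 19), napsin A, an aspartic protease that trims the precursor of SP-B and is a diagnostic marker of lung adenocarcinoma, was at 4.45 and 3.55 with H2BK120R, against 3.99 and 4.34 with the vector. The H2BK120R arrays thus held both the highest and the lowest NAPSA value. SLC34A2 (chromosome 4), the sodium-phosphate cotransporter of the type II cell surface, was at 4.64 and 5.24 with H2BK120R, against 4.57 and 4.50 with the vector. Both H2BK120R values lay above both vector values, the lower of them by little, and the 5.24 of replicate 2 was above the 95th percentile of the background, as no NAPSA value was.

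LAMP3 (chromosome 3), also known as DC-LAMP, is a membrane glycoprotein of lamellar bodies, and it is also made by mature dendritic cells. It was at 4.84 and 4.76 in the H2BK120R arrays, against 4.34 and 3.85 in the vector arrays, and the groups did not overlap. The means were 4.80 ± 0.06 with H2BK120R and 4.10 ± 0.35 with the vector (SD, n = 2 each). Of the 348 olfactory receptor genes, 50 were at least as bright as LAMP3 on average, so this difference lies among low levels. In bulk RNA, fewer cells with a transcript and less of it per cell cannot be told apart.

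Of the lineage factors, NKX2-1 lay inside the background and both FOXA genes lay far above it. NKX2-1 (chromosome 14), which specifies the lung and drives the surfactant genes, was at 4.50 and 4.47 with H2BK120R, against 3.94 and 4.52 with the vector. The vector arrays overlapped the H2BK120R arrays, since vector replicate 2 was the highest of the 4 and vector replicate 1 the lowest, and 53 of the 348 olfactory receptor genes were at least as bright. FOXA1 (chromosome 14), a forkhead factor that opens chromatin for other factors, was at 9.29 and 9.66 with H2BK120R, against 9.34 and 8.87 with the vector. FOXA2 (chromosome 20), its close relative, was at 11.25 and 11.59 with H2BK120R, against 10.85 and 11.37 with the vector. For both genes the groups overlapped, the highest array was H2BK120R replicate 2 and the lowest was a vector array, and 0 of the 348 olfactory receptor genes were as bright. The SFTPB start window shown above held a forkhead match and no exact match to CTCAAG, the only NKX2-1 form searched. NKX2-1 sites with other letters may lie in it and were not searched. SFTPB was at background level in cells where both FOXA probe sets were bright and NKX2-1 was not. A link between these matches and the levels was not tested.

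**Figure D1:**
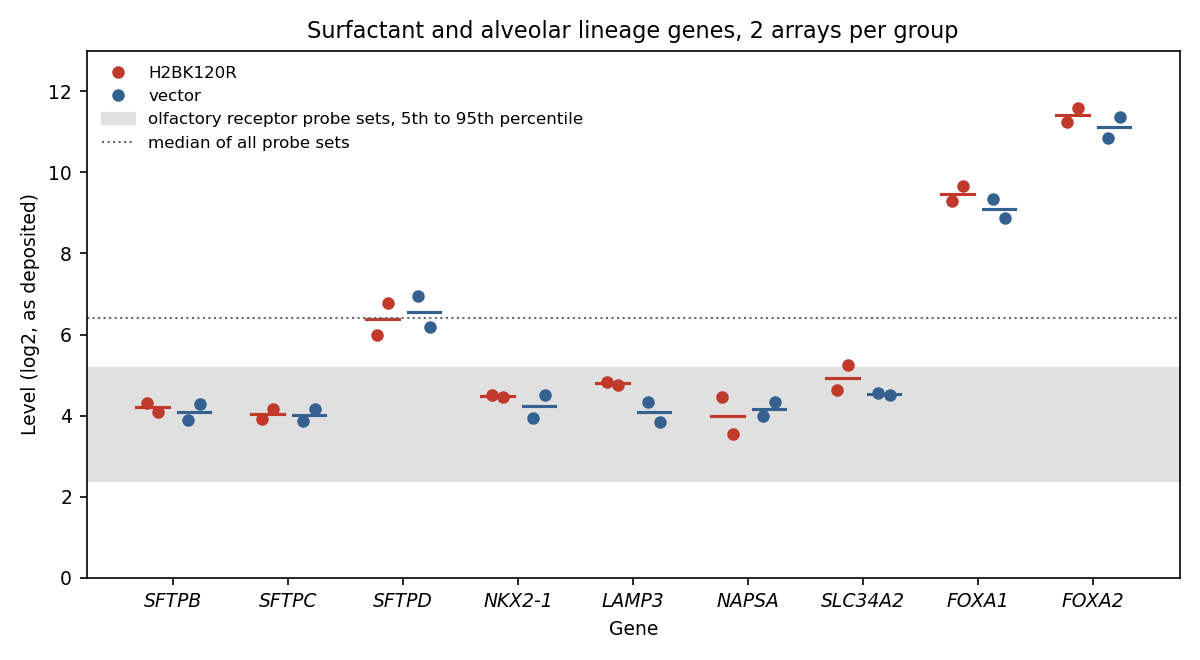
Log2 level of each of the 9 genes (x axis) in the 2 H2BK120R arrays (red, left) and the 2 vector arrays (blue, right), with group means as bars. The grey band spans 2.38 to 5.17, the 5th to 95th percentile of 348 olfactory receptor genes, and the dotted line is the median of all probe sets at 6.41. SFTPD, FOXA1 and FOXA2 lie above the band and the other 6 genes have group means inside it.

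H2BK120R was set against vector with limma over the whole table, to ask whether alveolar genes differ once the mark is lowered. None of the 9 genes passed a Benjamini-Hochberg adjusted p of 0.05, and neither did any other probe set (0 of 21448, 0%). The adjusted p-values of the 9 genes in limma ran between 0.745 for LAMP3 and 0.990 for SFTPC. At an unadjusted p under 0.05, limma called 1 of the 9, LAMP3, where 6.70% of all probe sets were called. The labels do not say that replicates are separate cultures, so the p-values rest on the scatter of 4 arrays, and that scatter may be technical. An exact permutation test of 2 arrays against 2 cannot give a two-sided p below 0.333.

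LAMP3 differed by 0.71 ± 0.32 on the log2 scale (limma SE), a ratio of 1.63, with a 95% interval of 0.01 to 1.40, an unadjusted limma p of 0.0483 and an adjusted p of 0.745. It was 0.46 without vector replicate 2, which was the lowest array, and 0.95 without vector replicate 1. FOXA1 differed by 0.37 ± 0.22 (95% interval -0.12 to 0.86, limma adjusted p = 0.776), from means of 9.48 ± 0.26 with H2BK120R and 9.11 ± 0.33 with the vector (SD, n = 2 each). It was 0.14 without vector replicate 2 and 0.61 without vector replicate 1, and 0.19 without H2BK120R replicate 2 and 0.56 without H2BK120R replicate 1. FOXA2 differed by 0.31 ± 0.20 (95% interval -0.12 to 0.74, limma adjusted p = 0.784), from means of 11.42 ± 0.24 with H2BK120R and 11.11 ± 0.37 with the vector (SD, n = 2 each). A difference past 0.86 for FOXA1 or past 0.74 for FOXA2, in the direction of H2BK120R, thus lies outside these intervals, while no difference lies inside them. Without vector replicate 2 FOXA2 differed by 0.57, and without vector replicate 1 by 0.05.

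For the remaining 6 genes the intervals all held 0 and were wider than those of the FOXA genes. SLC34A2 differed by 0.41 ± 0.33 and NKX2-1 by 0.26 ± 0.32 (limma SE), with 95% intervals of -0.31 to 1.12 and -0.46 to 0.97. The SLC34A2 difference was 0.11 without H2BK120R replicate 2, the array at 5.24, and 0.71 without H2BK120R replicate 1. The SFTPB interval was -0.57 to 0.80 and that of SFTPC was -0.65 to 0.70. NAPSA differed by -0.17 ± 0.36, with an interval of -0.96 to 0.63. Both FOXA genes had standard errors of 0.20 to 0.22, and the other 7 genes of 0.31 to 0.36. Over the whole table the median limma standard error was 0.31 for probe sets at or below the background's 95th percentile and 0.22 for brighter ones. The differences of 6 of the 9 genes thus lie in the lowest part of the scale.

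Taken as a list, 7 of the 9 genes had a difference above 0 and 2 below (SFTPD and NAPSA), where 49.9% of all probe sets were above 0 and 49.4% below. Their median difference was 0.26, against 0.00 over all probe sets. The groups did not overlap for 2 of the 9 genes, LAMP3 and SLC34A2, both higher with H2BK120R. Over all probe sets 18.6% were non-overlapping on that side and 36.5% on either side. Averaged over the 9 genes, the arrays deviated from each gene's mean by 0.04 and 0.16 with H2BK120R, and by -0.12 and -0.08 with the vector. Without vector replicate 1 the median was 0.05.

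**Figure D2:**
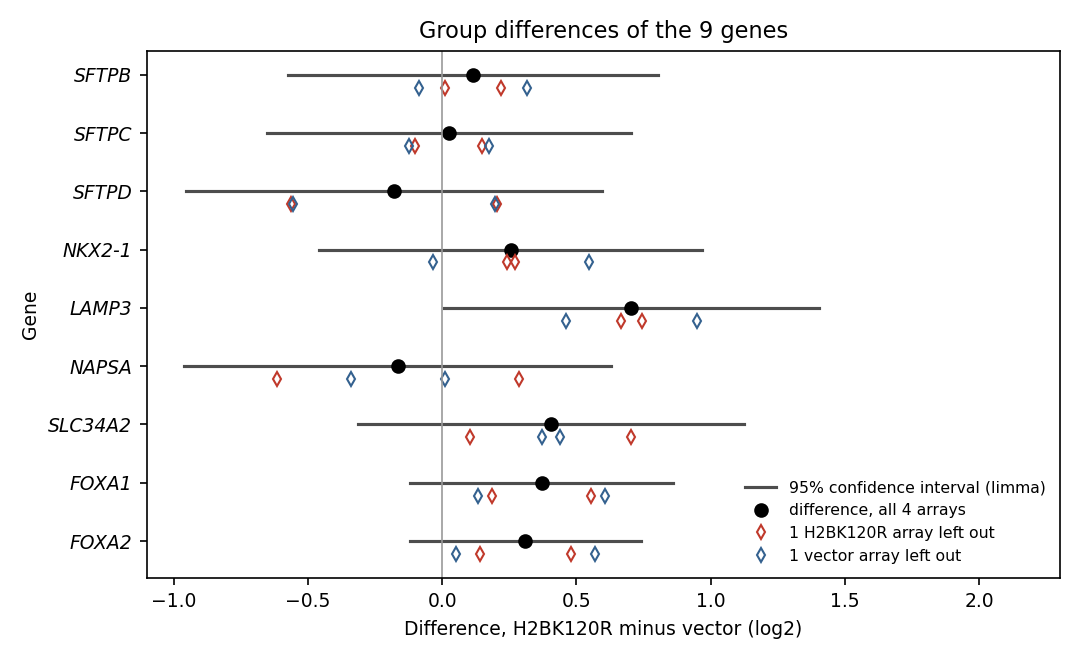
Difference of each gene on the log2 scale, H2BK120R minus vector (x axis). Filled points use all 4 arrays, lines are limma's 95% intervals, and open diamonds leave out 1 H2BK120R array (red) or 1 vector array (blue). LAMP3 has the one interval that lies above 0, from 0.01 to 1.40, and SFTPB, SFTPC, SFTPD, NKX2-1 and NAPSA each have diamonds on both sides of 0.

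By the distance between their deviations over the 4 arrays, the genes nearest to LAMP3 were LBP, SNTG2 and TCF21, at 0.04, 0.06 and 0.08 on the log2 scale. LBP was at 3.36 and 3.33 with H2BK120R, against 2.86 and 2.40 with the vector. With 4 arrays such closeness describes these values and no more.

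Of the defining type II markers among the 9 genes, SFTPB, SFTPC, NAPSA, LAMP3 and SLC34A2 were thus at background brightness and SFTPD was above it. SFTPD averaged 6.475, near the median of 6.41 over all probe sets. Since 13209 of the 21448 probe sets lay above the background's 95th percentile, such brightness does not by itself mark type II cells. Further type II genes were split between bright and background probe sets. Of 16 listed, 15 were measured, 8 lay above the background's 95th percentile and 7 did not. The bright ones included ABCA3, the lipid pump of the lamellar body, LPCAT1, which remodels surfactant phosphatidylcholine, and ETV5, a factor that maintains type II cells, with means over the 4 arrays of 8.03, 10.10 and 11.45. CTSH, a cathepsin that also processes the SP-B precursor, and CEBPA, a factor of type II maturation, lay at 4.79 and 4.34, inside the background like SFTPB. SFTPA1 and SFTPA2, the SP-A genes and collectin relatives of SFTPD, were at 3.26 and 5.42, but they are near-identical copies and their probe sets may read each other. None of the 15 passed in limma. Their differences were above 0 for 4 and below 0 for 11, with a median of -0.07. That median was -0.18 without vector replicate 1 and 0.03 without vector replicate 2, so its sign rests on 1 array. The smallest p-values belonged to WIF1, a secreted WNT inhibitor (-0.73 ± 0.32), ABCA3 (0.39 ± 0.22) and PEBP4 (-0.56 ± 0.33), with limma adjusted p-values of 0.745, 0.767 and 0.772. ABCA3 was at 8.30 and 8.14 with H2BK120R, against 7.87 and 7.79 with the vector, so its groups did not overlap. Of the 15 genes, 2 were non-overlapping on the higher side and 4 on the lower. Over all probe sets the shares were 18.6% and 17.9%.

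Relatives of NAPSA, LAMP3 and SLC34A2 lay above the background's 95th percentile for 4 of 5, 3 of 4 and 3 of 4 measured genes, and none passed in limma. LAMP1 and LAMP2, the lysosomal glycoproteins that most cells carry, had means of 10.69 and 12.52 over the 4 arrays, and differed by 0.09 ± 0.23 and 0.19 ± 0.14 between H2BK120R and vector. LAMP5, a neuronal relative, differed by 0.11 ± 0.27. CTSD, the lysosomal aspartic protease related to NAPSA, averaged 15.27 and differed by 0.15 ± 0.10. CTSE and PGC, aspartic proteases of the stomach, differed by -0.62 ± 0.40 and -0.32 ± 0.31. SLC20A1 and SLC20A2, the phosphate transporters found in most tissues, averaged 9.55 and 10.45. SLC34A1 and SLC34A3, the kidney relatives of SLC34A2, averaged 6.67, above the background, and 3.73, inside it. SLC34A3 differed by 0.76 ± 0.30 with a limma adjusted p of 0.745, again at background brightness, while SLC34A1 and SLC20A2 differed by -0.12 ± 0.27 and -0.10 ± 0.17. FOXA3, the remaining FOXA gene, averaged 3.42 and lay inside the background, unlike FOXA1 and FOXA2. Of the 6 collectins other than SFTPD, 1 lay above the background's 95th percentile, SFTPA2, and 5 differed below 0. COLEC12, a scavenger receptor, differed by -1.02 ± 0.40 (limma adjusted p = 0.745), with 2.38 and 3.21 with H2BK120R, against 4.34 and 3.28 with the vector. COLEC10, a liver collectin, and MBL2, the mannose-binding lectin of serum, differed by -0.66 ± 0.31 and -0.36 ± 0.29.

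Most other factors of the lung lineage were bright, as the FOXA genes were and NKX2-1 was not. All 26 listed were measured and 20 lay above the background's 95th percentile. Among them were SOX2 and SOX9, which mark the proximal and distal airway buds, and NFIB, needed for lung maturation. The 6 not above it were GRHL2, IRX1, IRX2, IRX3, ELF5 and FOXA3. Since 13209 of 21448 probe sets lay above it, brightness does not by itself mark the lung lineage. None passed in limma, with 15 above 0, 10 below, 1 equal and a median of 0.05. At an unadjusted p under 0.05, limma called 3 of the 26, all higher, where the background was 6.70%. They were YAP1 and WWTR1, the paired coactivators of the Hippo pathway, and KLF5, a zinc finger factor of epithelia. YAP1 was at 11.89 and 11.87 with H2BK120R, against 11.52 and 11.35 with the vector, and differed by 0.45 ± 0.14 (limma adjusted p = 0.693). KLF5 differed by 0.38 ± 0.13 and WWTR1 by 0.56 ± 0.21, with adjusted p-values of 0.722 and 0.738. WWTR1 was at 12.27 in vector replicate 1 and at 13.06 in vector replicate 2, a gap wider than the difference between the groups. TEAD1, their DNA-binding partner, differed by 0.19 ± 0.12.

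**Figure D3:**
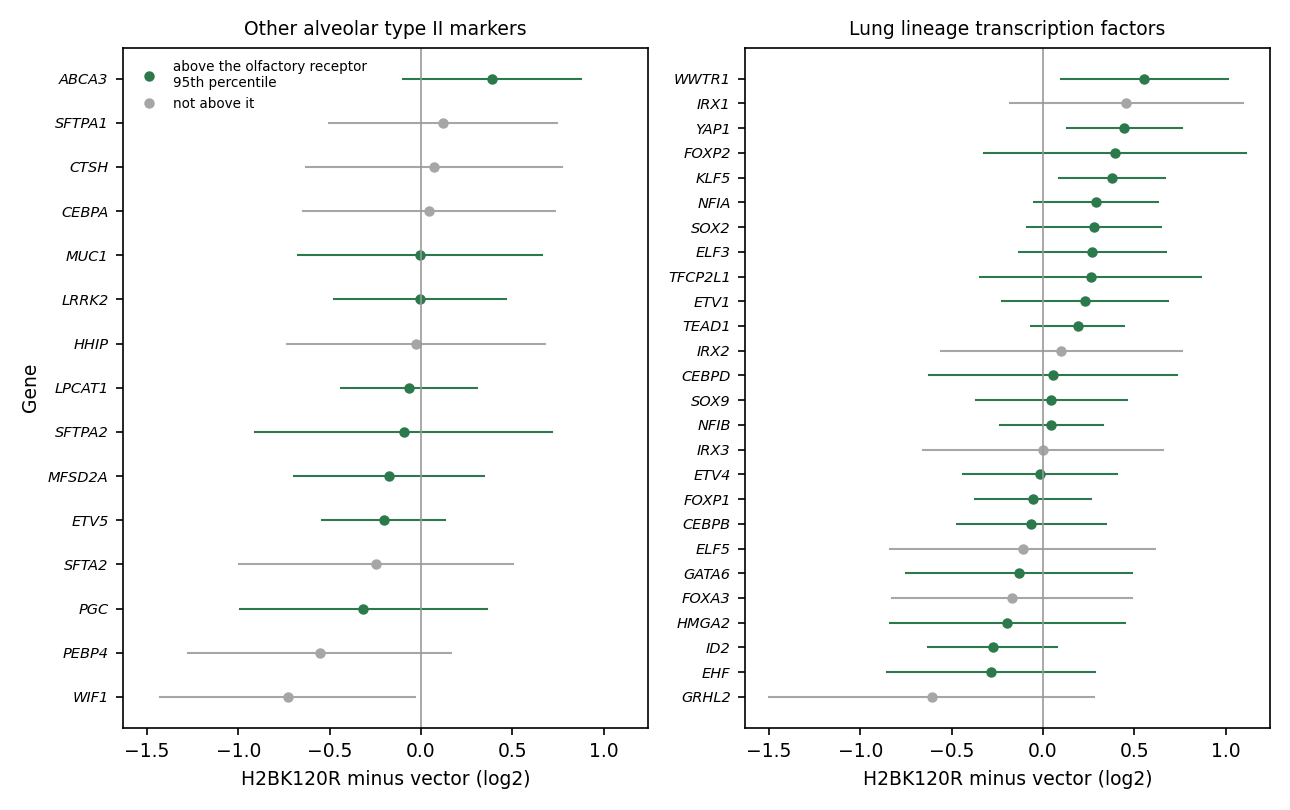
Difference on the log2 scale, H2BK120R minus vector (x axis), with limma's 95% intervals for 15 other alveolar type II genes (left panel) and 26 lung lineage factors (right panel). Green marks genes whose mean level exceeds 5.17, the 95th percentile of the olfactory receptor genes. The intervals of WIF1, WWTR1, YAP1 and KLF5 exclude 0 and none of these genes passed after adjustment.

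Most genes of the lipid arm of surfactant were bright. Of 21 listed genes of lipid synthesis and turnover 20 were measured and 17 lay above the background's 95th percentile. None passed in limma, 12 were above 0 and 8 below, and the median difference was 0.08. SCD, the fatty acid desaturase, averaged 16.60, ACLY, which makes cytosolic acetyl-CoA, 15.62, and PCYT1A, the rate-limiting enzyme of phosphatidylcholine synthesis, 11.33. The smallest p-values were those of PLD1, a phospholipase (0.35 ± 0.16, limma adjusted p = 0.745), CHPT1, a cholinephosphotransferase (-0.33 ± 0.17), and SCD (0.24 ± 0.13). Most of these enzymes serve every cell, so their levels do not mark type II cells.

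**Figure D4:**
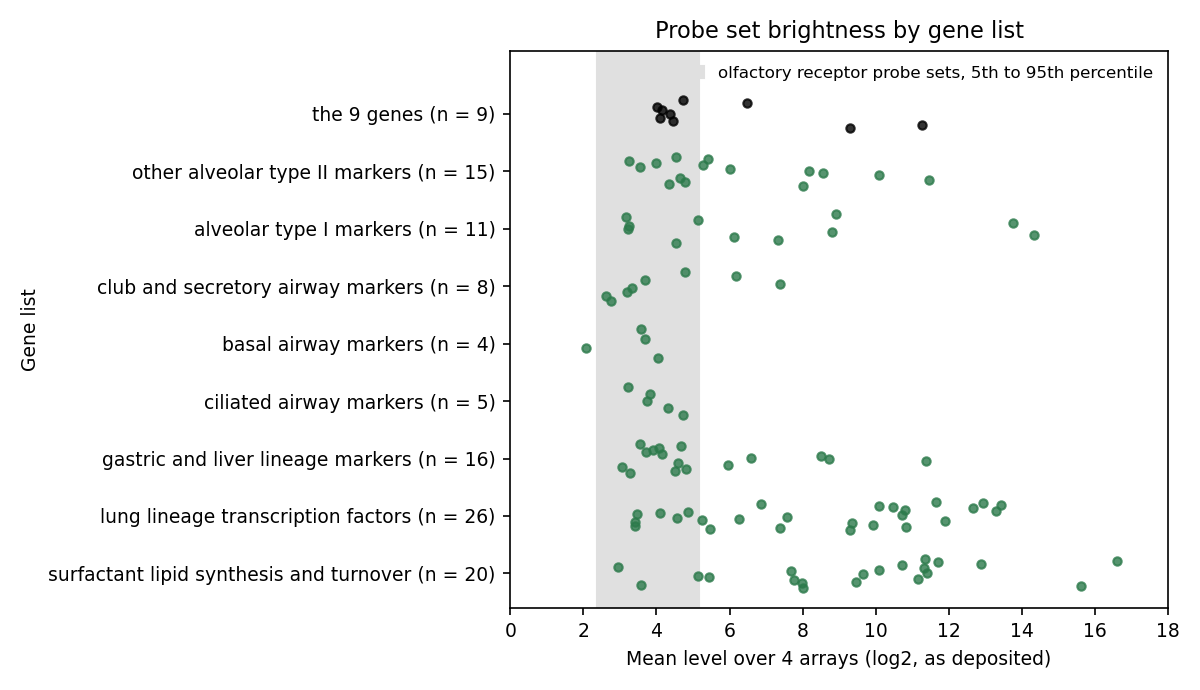
Mean log2 level over the 4 arrays (x axis) of every measured gene in 9 lists (rows, with n). The grey band spans 2.38 to 5.17, the 5th to 95th percentile of the olfactory receptor genes. Of the 9 genes 3 lie above the band, of the other type II genes 8 of 15, of the lung lineage factors 20 of 26, and of the basal and ciliated genes 0 of 4 and 0 of 5.

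Markers of basal, ciliated, leukocyte, fibroblast and endothelial cells were mostly at background. Alveolar type I genes and gastric and liver genes are described further below. Basal and ciliated airway markers were all at or under the background's 95th percentile, 4 and 5 genes. The smallest p-values among them were those of NGFR, DAPL1 and KRT5 (0.24 ± 0.29, 0.22 ± 0.30 and 0.13 ± 0.30) and of SNTN, FOXJ1 and CCDC78 (0.60 ± 0.32, 0.48 ± 0.32 and -0.42 ± 0.30). The samples are titled as the A549 line, and their titles name no other cell type. Leukocyte markers are given only because dendritic cells also make LAMP3. Of the 6 measured, 2 lay above that percentile, CD14 (mean 5.33) and CD3E (5.195). Their summed log2 level was 28.6 and 26.7 with H2BK120R, against 28.4 and 25.9 with the vector. PTPRC, which encodes the leukocyte antigen CD45, was at 4.73 and 4.67 with H2BK120R, against 5.15 and 4.41 with the vector, inside the background. LYZ, MARCO and CD3E, with the smallest p-values of that list, differed by 0.42 ± 0.35, -0.35 ± 0.32 and 0.27 ± 0.35. Fibroblast markers lay above the background's 95th percentile for 2 of 6 measured genes, COL1A2 (mean 8.26) and COL1A1 (6.185). Endothelial markers did so for 1 of 5, VWF (6.09). Fibroblast sums were 30.6 and 31.5 with H2BK120R, against 31.4 and 30.6 with the vector, and endothelial sums 18.1 and 18.4 with H2BK120R, against 17.9 and 18.2 with the vector. The smallest p-values there were those of PDGFRB, COL1A1 and COL1A2 (0.51 ± 0.31, -0.34 ± 0.28 and 0.16 ± 0.22) and of TEK, PECAM1 and KDR (0.42 ± 0.31, -0.38 ± 0.30 and 0.18 ± 0.27). The table holds no value of 0, its lowest being 1.56. The part of these cells in the values above was not tested.

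Across the 6 pairs of arrays, Pearson correlations over probe sets were 0.990 to 0.994. Vector replicate 1 was in each of the 3 pairs with the lowest correlations. Vector replicate 2 correlated at 0.993 with each H2BK120R array and at 0.991 with vector replicate 1. The 2 vector arrays were thus not closest to each other, while the 2 H2BK120R arrays were, at 0.994.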

How the data were processed

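RNA levels of 4 samples, grouped by their titles, were measured with Affymetrix whole-transcript arrays. The deposited table holds log2 levels that the authors normalized between arrays. The base is inferred from the range, 1.56 to 19.15, and the normalization from array medians of 6.40 to 6.43. Per the submitters' processing notes MAS5 was used, but the sources used here do not give its role, the background correction or the probe summary. Another log base would rescale every difference. Genes were named through the platform annotation: of 21448 probe sets 17709 had 1 symbol, 0 several and 3739 none, and all gene IDs matched RefSeq GRCh38.p14. The brightest probe set stood for a gene.

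A two-sided limma model (version 3.58.1, R 4.3.3) with a mean-variance trend in eBayes and no covariate was fitted on all probe sets, with Benjamini-Hochberg adjustment over all of them, 2 residual and 8.95 prior degrees of freedom. The script was tested on simulated data. All 9 genes were named. Of each context list the 3 smallest p-values and genes described by role were named, and the 3 profiles nearest to the gene with the smallest p. The members and lists were chosen with earlier results of these data known. Of the listed genes 12 were not analysed here. Promoters are RefSeq's. Alternatives were 2 normalizations, leaving out the dimmest 25% or 50%, named probe sets only, 2 other variance models, a replicate block and leaving out each array. Figures used Python 3.11.15 and matplotlib 3.10.9. The number of arrays limits the precision.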

Additional observations from a re-analysis of the deposited data

How the results depend on the processing

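Under each alternative run, limma's adjusted p stayed at or above 0.05 for each of the 9 genes and each other probe set tested, so 0 were called. At an unadjusted p under 0.05 the count of the 9 genes was 1 as reported, 0 with equal array medians, where LAMP3 had a limma p of 0.0507, 0 without the dimmest 50% of probe sets, where LAMP3 was not tested and 3 of the 9 genes remained in the fit, and 0 to 1 with an array left out. That gene was LAMP3 in each case but without vector replicate 2, where it was FOXA2 at a difference of 0.57. Over the whole table the count was 1437 as reported, 903 without the dimmest 50%, where fewer were tested, and 495 to 2427 with an array left out, lowest without H2BK120R replicate 2 and highest without vector replicate 2. The median difference of the 9 genes was 0.34 over the 6 that remained without the dimmest 25%, and 0.05 to 0.32 with an array left out. With an array left out, 5 genes took either sign: SFTPB from -0.085 to 0.32, SFTPC from -0.13 to 0.18, SFTPD from -0.57 to 0.21, NKX2-1 from -0.035 to 0.55 and NAPSA from -0.62 to 0.29. LAMP3, SLC34A2, FOXA1 and FOXA2 kept a difference above 0 in each fit that held them, which for LAMP3 and SLC34A2 leaves out the one without the dimmest 50%. Beyond the fewer arrays or probe sets, the cause was not tested. With the replicate number as a block, LAMP3 had an unadjusted limma p of 0.0435 and an adjusted p of 0.578. In that fit 1846 probe sets were at an unadjusted limma p under 0.05. The median of the 9 was 0.26 again, since a block on replicate numbers that both groups share cannot change it. The numbers are shared by 2 pairs only, whose deviations correlated at 0.14 over probe sets, so they are read as numbers and not as pairs. Of 171 list medians recomputed, 37 moved by at least the spread between arrays and 134 by less. Those 134 include runs that could not change a median: the 2 other variance models, the block and named probe sets only. Each of the 9 genes has 1 probe set, so averaging probe sets gave no other value. Low brightness limits 6 of the 9 genes.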

Other observations

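Besides alveolar genes, some genes of the liver lineage had bright probe sets, while most gastric and liver genes measured did not. FGA and FGB, which encode fibrinogen chains, averaged 11.37 and 8.72 over the 4 arrays, and the nuclear receptor gene HNF4G averaged 8.50, while ALB, APOB and AFP lay inside the background of olfactory receptor genes. FGB was at 8.88 and 9.11 with H2BK120R, against 8.52 and 8.38 with the vector, a difference of 0.55 ± 0.21 (limma adjusted p = 0.739). VIL1, which encodes villin, and FGA differed by -0.64 ± 0.32 and 0.30 ± 0.15. Of the 16 gastric and liver genes measured, 5 lay above that background's 95th percentile and 11 did not, where 13209 of all 21448 probe sets lay above it. Their differences were above 0 for 6 and below 0 for 10, and none passed in limma. CDX2, an intestinal homeobox gene, was at 5.73 and 5.49 with H2BK120R, against 6.88 and 5.68 with the vector, so that vector replicate 1 stood above the other 3 arrays.

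Club and secretory airway genes were below 0 for 7 of 8, with a median of -0.19, and none passed in limma. The median was -0.04 over the 3 genes that remained without the dimmest 25% of probe sets, and -0.11 without H2BK120R replicate 2. SCGB1A1, the secretoglobin of club cells, had the smallest p of them. It was at 3.12 and 3.30 with H2BK120R, against 4.22 and 4.07 with the vector, a difference of -0.94 ± 0.30 (limma adjusted p = 0.693). All 4 values lay inside the background. BPIFA1 and CYP2F1, next by p, differed by -0.63 ± 0.30 and -0.28 ± 0.30, also inside it. Of the 11 alveolar type I genes measured, 6 lay above the background's 95th percentile. Among the 11, CAV1 and EMP2, both membrane proteins, averaged 14.34 and 13.76. AGER, the receptor most specific to these cells, averaged 4.52. EMP2 was at 13.63 in both H2BK120R arrays, against 14.06 and 13.73 in the vector arrays, a difference of -0.27 ± 0.13 (limma adjusted p = 0.757). COL4A3 and PDPN, both inside the background, differed by -0.43 ± 0.30 and 0.30 ± 0.31.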
